A study of Mus musculus with 6 samples.

Results

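The expression of 10 integrin genes of tooth epithelium and mesenchyme was followed in the IEE of the MM1 after deletion of Kdf1 from the epithelium. They were the alpha subunit genes Itga1, Itga2, Itga5, Itga8, Itga11 and Itgav and the beta subunit genes Itgb1, Itgb3, Itgb6 and Itgb8, and the list was drawn up by name, with earlier results of these data known. All 10 were found among the 18152 genes of the deposited table by an exact match of the gene symbol. Their NCBI gene identifiers in the table are 109700, 16398, 16402, 241226, 319480 and 16410 for the alpha and 16412, 16416, 16420 and 320910 for the beta genes, in the order given. RNA-seq libraries came from the inner enamel epithelium (IEE), the layer of the enamel organ that later forms ameloblasts, of the mandibular first molar (MM1) at E18.5. The control group held 3 libraries of Kdf1 fl/fl mice (WT in the sample labels), and the cKO group held 3 libraries of K14-Cre;Kdf1 fl/fl mice (Kdf1 deletion in the labels). Mice of both genotypes carried floxed Kdf1 alleles on a C57BL/6J background, and the controls lacked the Cre transgene. Cre was driven by the keratin 14 promoter, so that Kdf1 is removed in epithelial cells, the epidermis included, and not in the mesenchyme. The IEE was cut from frozen head sections by laser capture microdissection, and whether a library pooled several embryos is not given in the sources used here.

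Integrins are receptors that span the cell membrane as pairs of an alpha and a beta subunit. Outside the cell they bind extracellular matrix, and inside the cell adaptor proteins such as talin and kindlin join the beta tail to actin and to focal adhesion kinase, from which signals can reach the PI3K/AKT pathway. In the enamel organ they hold the epithelium to the basement membrane that separates it from the dental papilla. Itgb1 pairs with most alpha subunits. With Itga1, Itga2 or Itga11 it forms collagen receptors, and with Itga5 or Itga8 receptors for the RGD sequence of fibronectin and nephronectin. Itgav pairs with Itgb1, Itgb3, Itgb5, Itgb6 and Itgb8, and the receptors with Itgb6 and Itgb8 are known to release active TGF-beta from its latent form.

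Library totals ranged from 14713918 to 16675133 estimated counts. Values are given as CPM, the estimated counts scaled to library size after its adjustment by the TMM factors (0.950 to 1.03). Kdf1 itself was at 52.5, 44.2 and 52.7 CPM in the 3 control libraries, and in the cKO libraries 1 read was counted in all. The labelled tissue was checked against marker genes. The epithelial markers Krt14 and Epcam were present in every library, the lowest values being 399 and 248 CPM. Genes of the papilla and odontoblasts were present as well in both groups, with Col1a1 between 2060 and 12947 CPM and Vim between 430 and 1001 CPM. The first cKO library stood apart in markers of several other cell types. It had the highest value of the 6 libraries for all 10 osteoclast, 9 of 9 endothelial, 9 of 10 pericyte and smooth muscle and 9 of 9 macrophage markers. The same held for 9 of 9 neutrophil, 5 of 7 platelet, 5 of 8 glia and nerve and 6 of 15 papilla markers. It held for 3 of 8 bone, 2 of 8 skeletal muscle, 1 of 12 dental epithelium and 0 of 8 keratinised epithelium markers. Over all genes tested the share was 20.5%. In bulk tissue, fewer cells of a type and less RNA per cell cannot be told apart.

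By the criterion of the study (adjusted p up to 0.05, log2 fold change of 1 or more in either direction), none of the 9 integrin genes tested passed in edgeR's quasi-likelihood test. Among all 14131 genes tested, 61 passed (0.432%, 0.142% as higher and 0.290% as lower in cKO mice). The same genes were read with a second model in which the replicate number was a block, and with DESeq2. The labels do not pair the libraries, and the block rests on a check of these same data. Deviations from the group means correlated at 0.135, 0.324 and 0.499 for libraries numbered 1, 2 and 3. Control 2 and cKO 1 reached 0.144, so the pairing of number 1 is weak. With the block, 3 of the 9 passed, Itga1 and Itga2 as lower and Itga8 as higher in cKO mice, against 6.09% of all genes (4.16% higher, 1.92% lower). In DESeq2, 4 passed, the same 3 genes and Itgb3, against 6.94% of all genes (5.05% higher, 1.88% lower). By unadjusted p alone, 5 of the 9 were at or under 0.05 in edgeR, Itga8 and Itgb3 higher and Itga1, Itga2 and Itgb6 lower, where 24.5% of all genes were (13.0% higher, 11.6% lower). With the fold minimum added, 4 of these remained, all but Itgb6, against 9.71% of all genes (7.19% higher, 2.52% lower). Without replicate 1 of the cKO group, 2 passed in DESeq2, Itga1 and Itga2 as lower, against 4.05% of all genes (2.45% higher, 1.60% lower). Without replicate 3 of that group, Itga1 and Itga2 passed in edgeR, against 3.23% of all genes. The fitted log2 fold change was above 0 for 6 of the 9 and below 0 for 3, with a median of 0.23, where 49.5% of all genes were above 0 and 50.5% below. The groups did not overlap for 5 of the 9, with Itga8, Itgb1 and Itgb3 higher and Itga1 and Itga2 lower in all cKO libraries. Across all genes tested, 30.7% did not overlap, 14.5% with cKO higher and 16.2% with cKO lower. Itgb8 did not pass the filter on low counts and was not among the 9.

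**Figure D1:**
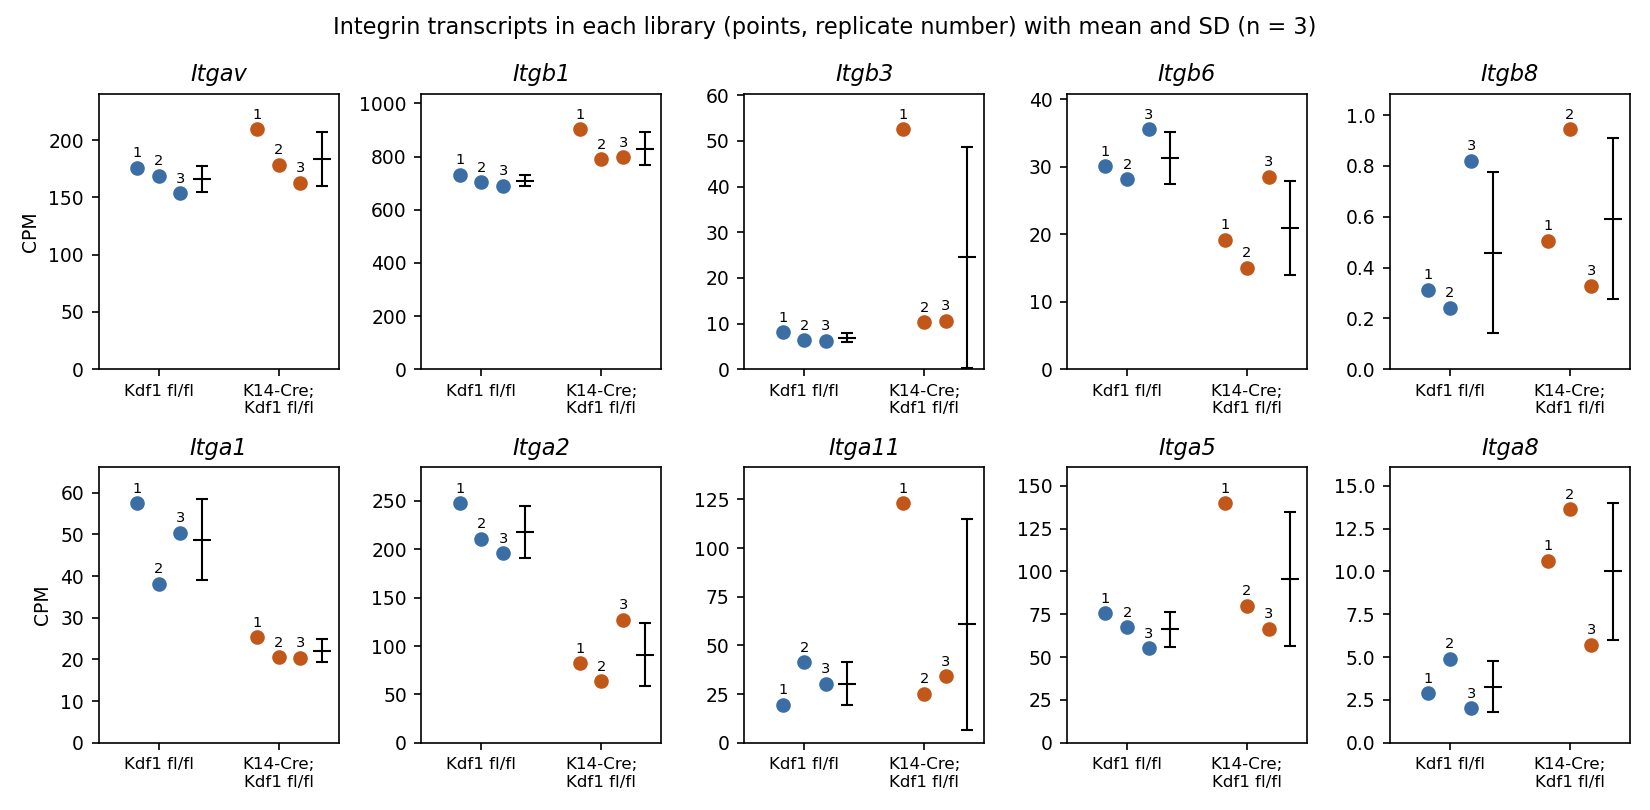
CPM of each of the 10 integrin genes (vertical axes, from 0, in CPM) in 3 control libraries (blue, Kdf1 fl/fl) and 3 cKO libraries (orange, K14-Cre;Kdf1 fl/fl), with the replicate number above each point and the mean and SD (n = 3) in black. The groups are apart for Itga1, Itga2, Itga8, Itgb1 and Itgb3, and replicate 1 of the cKO group is far above the other libraries for Itgb3 (52.5 CPM) and Itga11 (123 CPM).

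Among the collagen receptors, Itga2 was the most abundant per transcript length in the control libraries and was lower in every cKO library. Itga2 encodes the alpha 2 subunit, a receptor for collagen I that is typical of epithelia and platelets. It was at 248, 211 and 196 CPM in the control libraries and at 82.0, 63.7 and 127 CPM in the cKO libraries. The third cKO library was the closest to the controls, yet it lay well under the lowest of them. The means were 218 ± 26.8 and 91.0 ± 32.7 CPM (SD, n = 3 per group), 2.40-fold lower in cKO mice. On the log2 scale this was -1.26 (SE 0.25, 95% interval -1.86 to -0.67). Benjamini-Hochberg adjusted p values were 0.0656 (edgeR), 0.0265 (edgeR, replicate block) and 0.000186 (DESeq2). When both libraries numbered 1 were left out, the call with the block was lost (log2 fold change -1.17, edgeR adjusted p = 0.0511).

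Itga1 encodes the alpha 1 subunit, which binds collagen IV of the basement membrane as well as collagen I. It was at 57.5, 38.2 and 50.4 CPM in the control libraries and at 25.3, 20.5 and 20.4 CPM in the cKO libraries. The 3 cKO values lay close together and all were under the lowest control. The means were 48.7 ± 9.78 and 22.1 ± 2.79 CPM (SD, n = 3 per group), 2.21-fold lower in cKO mice, with a log2 fold change of -1.14 (SE 0.19, 95% interval -1.58 to -0.70). Benjamini-Hochberg adjusted p values were 0.0542 (edgeR), 0.0102 (edgeR, replicate block) and 2.34e-05 (DESeq2). The gene Pelo lies inside Itga1 on the same strand in the GENCODE annotation, so reads could be shared between them. Itga1 overlaps 3 annotated genes in all, and of these only Pelo is a row of the table. Itga5, Itga8 and Itgav overlap 1, 2 and 2 annotated genes that are not rows of the table, and whether counting used the strand is not given. Pelo was at 22.7 ± 2.15 and 17.3 ± 1.61 CPM (SD, n = 3 per group), and its log2 fold change was -0.39 (SE 0.15).

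Several epithelial markers moved with Itga1 and Itga2, and others did not. The 12 markers of dental epithelium summed to 11049 to 26194 CPM in the control libraries and to 4822 to 8418 CPM in the cKO libraries, and 9 of the 12 had a negative log2 fold change (median -0.62). That sum holds Amelx, Ambn and Enam, which encode enamel matrix proteins, and no marker of the list was at 0 in all libraries. Without these 3 genes the sum of the other 9 was 9561, 7251 and 11535 CPM in the control libraries and 4821, 4590 and 7900 CPM in the cKO libraries. The groups of this sum overlapped through replicate 3 of the cKO group alone. There Shh gave 1752 of the 7900 CPM, and it was at 550 to 912 CPM in every other library. Among these 9, Krt14 and Cdh1 had log2 fold changes of -1.50 each and Krt5 of -0.83, while Epcam, at 248 to 418 CPM in the control libraries and 284 to 357 CPM in the cKO libraries, had -0.05 (SE 0.21). Positive values were found for Krt15 with 0.37 (SE 0.50), Shh with 0.27 (SE 0.43) and Cldn1 with 0.17 (SE 0.16). The 8 markers of keratinised epithelium summed to 41.1 to 155 CPM and to 15.5 to 21.5 CPM, control first. Itga3 and Itga6, epithelial laminin receptor subunits outside the group of 10, had log2 fold changes of -0.16 (SE 0.15) and 0.25 (SE 0.20). The part of the amount of epithelium captured in the values of Itga1 and Itga2 was not tested.

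Itga1 and Itga2 are next to each other on chromosome 13, both on the minus strand. Their upstream sequences are shown because these neighbours were both lower in every cKO library, and that of Itga8 because it was higher under the same tests. The annotation for the order of the genes was GENCODE M21. Each sequence is the 250 bases before the RefSeq start of the gene in build GRCm38.p6, 5′ to 3′ on the minus strand, at chr13:115101965-115102214 for Itga1, chr13:114932101-114932350 for Itga2 and chr2:12301945-12302194 for Itga8. Capitals mark the only match to any of 6 motifs searched on both strands.
Itga1: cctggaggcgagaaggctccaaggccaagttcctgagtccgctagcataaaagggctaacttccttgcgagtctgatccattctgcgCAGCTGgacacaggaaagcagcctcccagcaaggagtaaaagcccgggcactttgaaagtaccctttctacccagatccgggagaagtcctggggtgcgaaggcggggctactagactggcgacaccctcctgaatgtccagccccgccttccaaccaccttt
Itga2: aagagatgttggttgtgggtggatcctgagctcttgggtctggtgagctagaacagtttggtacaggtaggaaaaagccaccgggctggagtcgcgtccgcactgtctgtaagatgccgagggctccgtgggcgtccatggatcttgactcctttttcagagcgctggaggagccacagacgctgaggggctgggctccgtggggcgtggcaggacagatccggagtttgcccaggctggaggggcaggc
Itga8: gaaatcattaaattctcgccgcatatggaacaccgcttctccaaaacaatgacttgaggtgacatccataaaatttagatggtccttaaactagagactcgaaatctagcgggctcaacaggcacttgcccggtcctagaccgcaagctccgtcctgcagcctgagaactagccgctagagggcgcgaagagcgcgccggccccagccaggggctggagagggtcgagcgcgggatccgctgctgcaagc
The motifs were GGGCGG (GC box, in 32.7% of the 250-base windows of all 32851 RefSeq promoters), TATAAA (12.4%), TGACTCA (an AP-1 site, 4.46%), CAGCTG (an E-box, 13.0%), CACCTG (an E-box, 17.2%) and AACCGGTT (the site of grainyhead-like factors, 0.116%). The window of Itga1 held 1 CAGCTG, and those of Itga2 and Itga8 held no match. The G and C content was 57.6%, 60.8% and 56.4% in the order shown, against a median of 52.4% over all windows, with 10, 12 and 18 CpG dinucleotides. Of the 10 integrin genes, 9 had a window in the RefSeq table. Across the other members, GGGCGG occurred 2 times before Itga5 and 1 time before Itgb1, and CACCTG 1 time each before Itga11, Itgb8 and the second of 2 starts of Itgb6.

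Itga11 encodes the alpha 11 subunit, a collagen I receptor of fibroblasts and other mesenchymal cells. It was at 19.6, 41.2 and 30.4 CPM in the control libraries and at 123, 25.2 and 34.1 CPM in the cKO libraries. Replicate 1 of the cKO group alone was high, and the other 2 lay within the range of the controls. The log2 fold change was 1.00 (SE 0.60, edgeR adjusted p = 0.346). Without that library it was -0.027 (SE 0.34, edgeR adjusted p = 0.970).

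Of the RGD-binding alpha subunits, Itga8 differed the most between the groups, at a low level. Its product pairs with Itgb1 as a receptor for nephronectin and is typical of mesenchymal and smooth muscle cells. It was at 2.89, 4.90 and 2.02 CPM in the control libraries, or 46, 81 and 32 counts, and at 10.6, 13.6 and 5.73 CPM in the cKO libraries, or 168, 217 and 87 counts. The lowest cKO library was just above the highest control. The control mean was 3.27 ± 1.48 CPM (SD, n = 3), and the cKO mean was 3.06-fold higher, a log2 fold change of 1.61 (SE 0.44, 95% interval 0.58 to 2.64). Benjamini-Hochberg adjusted p values were 0.0955 (edgeR), 0.0149 (edgeR, replicate block) and 0.00836 (DESeq2). Leaving out replicate 1 of the cKO group gave 1.57 (SE 0.51, edgeR adjusted p = 0.183), about as large a difference, and in DESeq2 the adjusted p was then 0.0580, so that the DESeq2 call was lost.

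Itga5 encodes the alpha 5 subunit of the main fibronectin receptor. It was at 75.7, 67.4 and 55.4 CPM in the control libraries and at 140, 80.0 and 66.5 CPM in the cKO libraries. The groups overlapped, since the third cKO library lay under 2 of the controls. The log2 fold change was 0.53 (SE 0.28, 95% interval -0.13 to 1.19, edgeR adjusted p = 0.288), and 0.16 (SE 0.17) without replicate 1 of the cKO group. Itgav, the partner of 5 beta subunits, was at 176, 169 and 153 CPM in the control libraries and at 209, 179 and 163 CPM in the cKO libraries. Its groups overlapped as well. The log2 fold change was 0.14 (SE 0.13), and the 95% interval of -0.16 to 0.45 lay within the fold minimum on both sides. Without replicate 1 of the cKO group it was 0.06 (SE 0.12).

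Markers of mesenchymal and blood vessel cells moved with Itga8, Itga11 and Itga5 to differing degrees. The 15 papilla markers summed to 4279 to 22630 CPM in the control libraries and to 10961 to 12771 CPM in the cKO libraries, and 11 of 15 had a positive log2 fold change (median 0.91). The 10 pericyte and smooth muscle markers summed to 506 to 577 CPM in the control libraries, to 1572 CPM in replicate 1 of the cKO group and to 711 and 527 CPM in the other 2. For the 9 endothelial markers these sums were 333 to 433, then 1187, 697 and 389 CPM, for the 9 macrophage markers 46.4 to 111, then 298, 147 and 89.4 CPM, and for the 9 neutrophil markers 4.73 to 6.27, then 86.6, 34.7 and 31.5 CPM. Itga11 and Itga5 were highest in replicate 1 of the cKO group, as were the pericyte, endothelial, macrophage and neutrophil sums. The papilla sum was highest in control replicate 2, where Col1a1 alone gave 12947 of 22630 CPM. Gene by gene, 7 of the 15 papilla markers were higher in every cKO library and 1, Dspp, was lower. Over all genes tested these shares were 14.5% and 16.2%. Replicate 2 of the cKO group was highest for Itga8 and for Pax9, Lhx6, Pdgfra, Fgf3 and Fgf10, and replicate 1 for 6 of the 15 markers. The rest of the 15 were highest in a control library. No marker of these lists was at 0 in all libraries, and the part of these cells in the 3 integrin values was not tested.

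**Figure D2:**
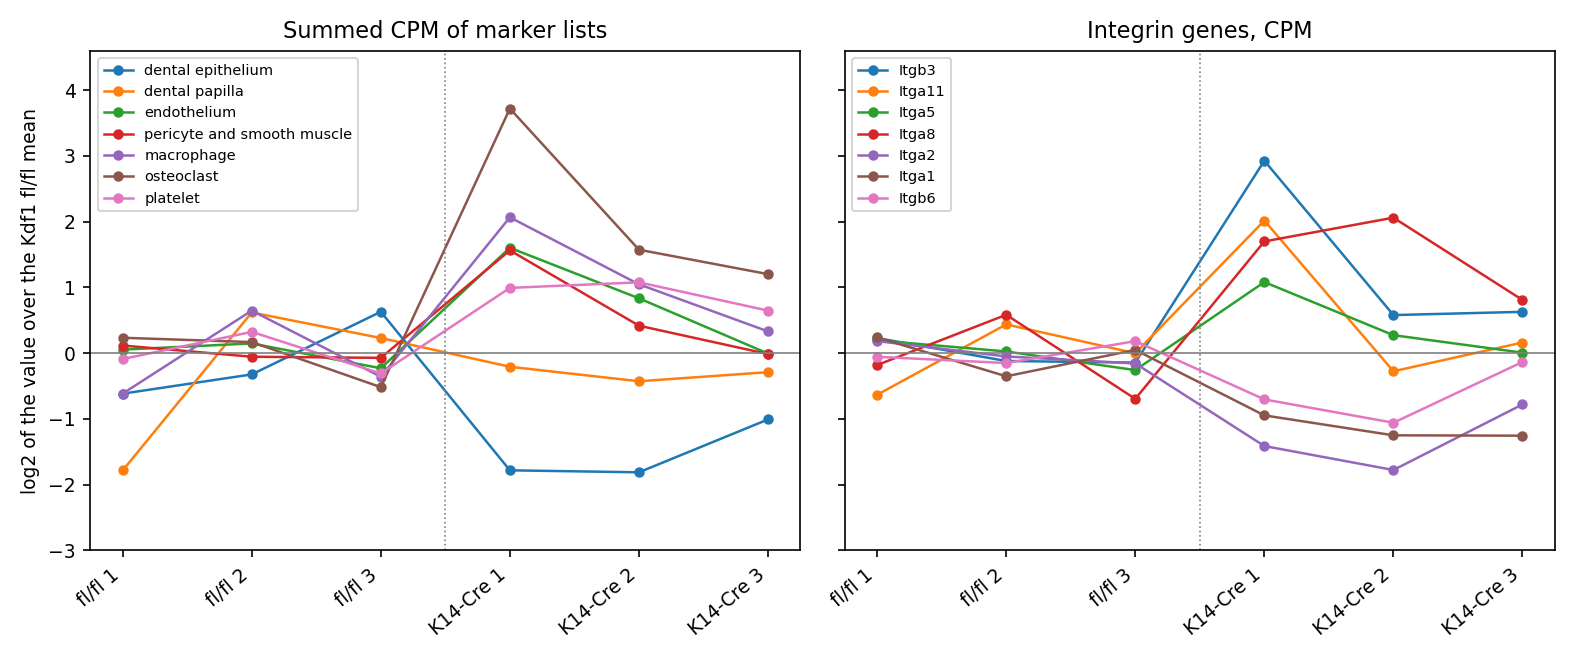
Summed CPM of 7 marker lists (left) and CPM of 7 integrin genes (right) in each library, as log2 of the value over the mean of the 3 control libraries (vertical axis; 0 is that mean), with lines only to guide the eye. Replicate 1 of the cKO group is the highest for osteoclast markers (1329 CPM), Itgb3 and Itga11, whereas Itga8 is highest in replicate 2 (13.6 CPM).

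Itgb1, the shared beta subunit, had the highest TPM of the 10 genes in every library. It was at 731, 704 and 690 CPM in the control libraries and at 902, 790 and 798 CPM in the cKO libraries. Every cKO library was above every control, by a small margin. The log2 fold change was 0.23 (SE 0.12, 95% interval -0.07 to 0.52), with adjusted p values of 0.300 (edgeR), 0.334 (edgeR, replicate block) and 0.158 (DESeq2). Its collagen-binding partners Itga1 and Itga2 had differences of -1.14 and -1.26 on the same scale. Whether these differ from that of Itgb1 was not tested.

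Itgb3 encodes the beta 3 subunit, which pairs with Itgav on osteoclasts and endothelium and with Itga2b on platelets. It was at 8.09, 6.36 and 6.25 CPM in the control libraries and at 52.5, 10.3 and 10.7 CPM in the cKO libraries. All cKO libraries were above the controls, and replicate 1 was several times above the other 2. The log2 fold change was 1.83 (SE 0.65), with adjusted p values of 0.151 (edgeR), 0.103 (edgeR, replicate block) and 0.0226 (DESeq2). Without replicate 1 of the cKO group it was 0.62 (SE 0.21, edgeR adjusted p = 0.199), and the DESeq2 adjusted p was 0.178, so that its DESeq2 call was lost too. The osteoclast markers moved with it. Their summed level was 70.5 to 119 CPM in the control libraries, 1329 CPM in replicate 1 of the cKO group and 300.0 and 232 CPM in the other 2, and all 9 osteoclast markers tested had a positive log2 fold change (median 2.07). The 7 platelet markers summed to 8.08 to 12.5 CPM in the controls and 15.7 to 21.1 CPM in the cKO libraries. Of the 3 tested, 2 were higher in every cKO library, where 14.5% of all genes tested were. These were Pf4 (1.83 to 3.21 and 3.43 to 7.21 CPM, control first) and Gp1bb (3.83 to 7.45 and 9.04 to 13.9 CPM). The defining marker Itga2b overlapped between the groups, at 1.12 to 2.78 CPM, and Gp9, not tested, was at 0.253 CPM or less in all libraries. The part of these cells in the Itgb3 values was not tested.

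Itgb6 encodes the beta 6 subunit, which is restricted to epithelia and is needed for normal enamel. It was at 30.1, 28.2 and 35.5 CPM in the control libraries and at 19.2, 15.0 and 28.5 CPM in the cKO libraries. The third cKO library lay just above the lowest control, so the groups overlapped. The log2 fold change was -0.58 (SE 0.25, 95% interval -1.16 to -0.0044), with adjusted p values of 0.201 (edgeR), 0.0633 (edgeR, replicate block) and 0.170 (DESeq2). Without replicate 2 of the cKO group it was -0.36. Itgb8, whose product also binds latent TGF-beta, had 5, 4 and 13 counts in the control libraries and 8, 15 and 5 counts in the cKO libraries. A count of 0 allows up to 3 counts, or 0.182 to 0.198 CPM, for counting error only, and Itgb8 lay at 0.242 to 0.943 CPM. Its groups overlapped, and a two-sided exact permutation test over the 6 libraries gave p = 0.5, where the smallest p this design allows is 0.1. The fit with no filter on low counts gave a log2 fold change of 0.36 (SE 0.67, edgeR adjusted p = 0.778).

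**Figure D3:**
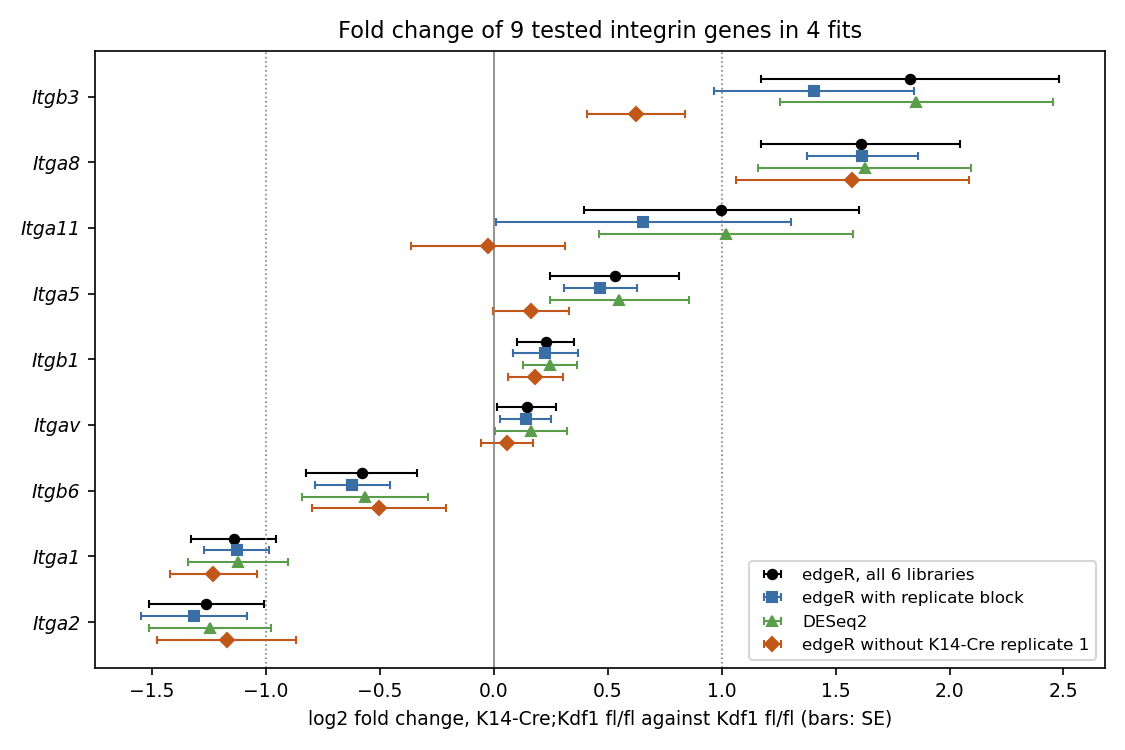
Log2 fold change (horizontal axis, cKO against control) of the 9 tested integrin genes in 4 fits, with bars for the SE and dotted lines at -1 and 1. Itga1, Itga2 and Itga8 stay near the same value in the 4 fits, whereas Itgb3 goes from 1.83 to 0.62 and Itga11 from 1.00 to -0.027 when replicate 1 of the cKO group is left out.

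The alpha subunits were compared with one another per transcript length, in TPM. In the control libraries Itga2 was the first of the 6, with 54.8 ± 8.45 TPM, followed by Itgav with 39.9 ± 5.04, Itga5 with 27.5 ± 5.4, Itga1 with 14.5 ± 2.63, Itga11 with 11.2 ± 4.46 and Itga8 with 1.06 ± 0.549 TPM (SD, n = 3). Itga1 and Itga11 did not differ beyond their spread, and the values of the other neighbours in this order did not overlap. In the cKO libraries the order was Itgav with 46.8 ± 9.42, Itga5 with 42.0 ± 20.1, Itga11 with 24.1 ± 23.0, Itga2 with 23.6 ± 7.47, Itga1 with 6.94 ± 1.35 and Itga8 with 3.31 ± 1.22 TPM. Of these, Itgav, Itga5 and Itga11 had overlapping values, and so had Itga11 and Itga2, while Itga2, Itga1 and Itga8 were apart. Itga2 made up 38.7%, 35.3% and 36.2% of the summed alpha TPM in the control libraries and 11.1%, 14.2% and 26.7% in the cKO libraries. The share of Itga1 was 7.65% to 11.2% in the controls and 4.09% to 5.47% in the cKO libraries. The shares of Itga5, Itgav and Itga8 were higher in every cKO library. They were 23.1% to 31.2% against 16.9% to 19.5% for Itga5 and 27.5% to 38.8% against 26.1% to 27.3% for Itgav. For Itga8 they were 1.67% to 3.75% against 0.482% to 1.05%. Shares of a sum are not independent, so a lower share of Itga2 raises the others.

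Among the 5 beta subunits that pair with Itgav, Itgb1 and Itgb5 took nearly all of the TPM in every library. Itgb1 held 54.7% to 58.4% in the control libraries and 54.0% to 61.2% in the cKO libraries, and Itgb5, which is no member of the group of 10, held 39.2% to 42.8% and 37.1% to 43.2%. Neither share differed beyond the spread between replicates, and the sign of either difference turned when 1 library was left out. Itgb6 held 1.98%, 2.07% and 2.55% in the control libraries and 1.02%, 1.03% and 1.72% in the cKO libraries, without overlap. Itgb3 held 0.359% to 0.431% in the controls, 2.24% in replicate 1 of the cKO group and 0.568% and 0.519% in the other 2. Itgb8 stayed at or under 0.102% in all libraries. Itgb6 and Itgb8 were thus a minor part of the beta transcripts in both groups. These shares are a description, without a test.

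**Figure D4:**
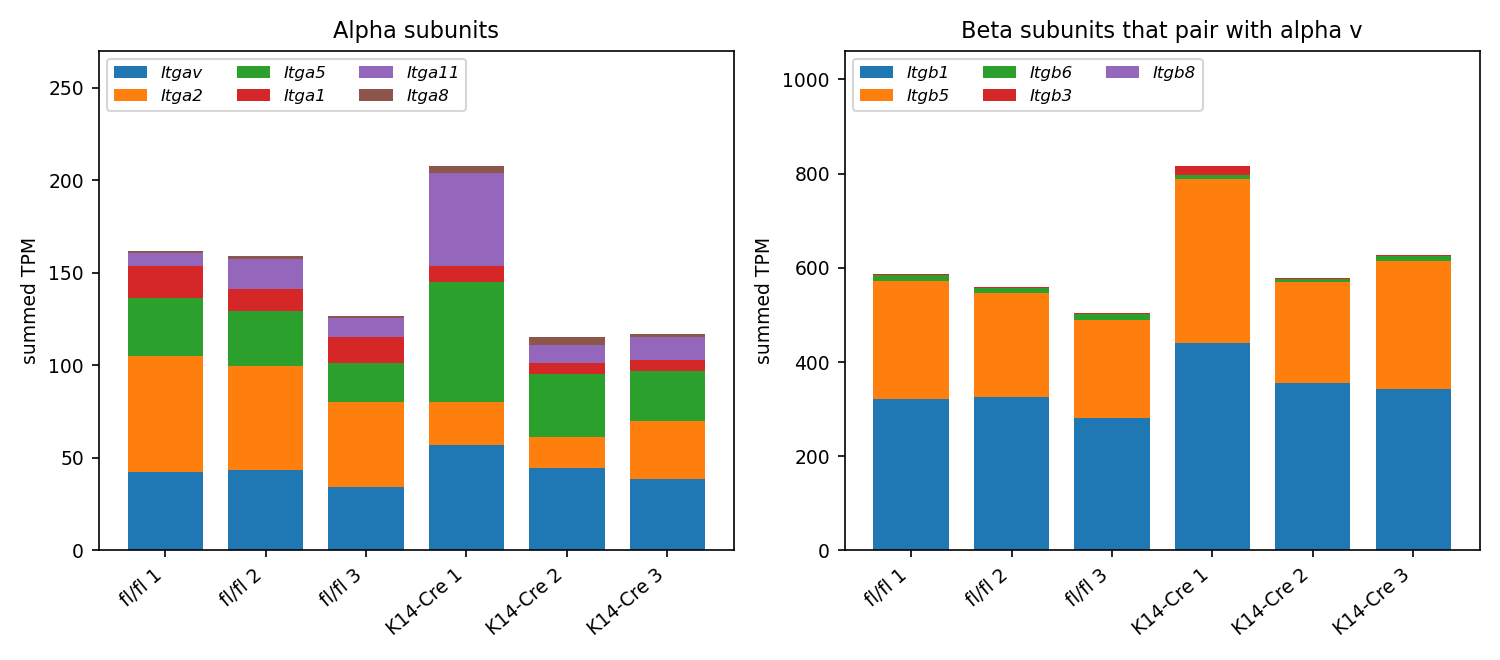
Stacked TPM (vertical axes, from 0) of 6 alpha subunit genes and of the 5 beta subunit genes that pair with alpha v, in each of the 6 libraries (fl/fl, Kdf1 fl/fl; K14-Cre, K14-Cre;Kdf1 fl/fl). The Itga2 band is narrower in the cKO libraries (16.4 to 31.3 TPM against 45.8 to 62.6 TPM), and Itgb1 and Itgb5 fill most of every beta bar.

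The genes around these receptors were taken from 5 lists of other integrin subunits, collagen ligands, RGD-bearing ligands, latent TGF-beta proteins, and adaptors and kinases. Of 89 genes listed, 87 were in the table and 81 were tested. None passed the criterion in edgeR, where 28 had an unadjusted p of at most 0.05 and were higher and 12 were lower (13.0% and 11.6% of all genes). With the replicate block 13 passed as higher and 2 as lower (4.16% and 1.92% of all genes), and in DESeq2 16 and 2 (5.05% and 1.88%). Without replicate 1 of the cKO group 8 passed in DESeq2 (4.05% of all genes, 2.45% higher and 1.60% lower), Ccn2, Col13a1, Col6a1, Col6a2, Lrrc32, Spp1 and Thbs1 as higher and Ptk2b as lower. Median log2 fold changes were 0.83 for 9 collagen ligands, 1.26 for 17 RGD ligands, 0.56 for 8 latent TGF-beta genes, 0.26 for 13 other integrin subunits and 0.19 for 34 adaptors and kinases, where that of all genes tested was -0.0043. The ligands include genes of the papilla and bone matrix.

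Among the other integrin subunits, Itgb4, the beta subunit of hemidesmosomes, had the lowest p. It was at 777, 711 and 890 CPM in the control libraries and at 445, 393 and 533 CPM in the cKO libraries, so that the log2 fold change was -0.79 (SE 0.16). Adjusted p values were 0.0674 (edgeR), 0.0206 (edgeR, replicate block) and 0.000335 (DESeq2), and its change was under the fold criterion. The next were Itga7, a laminin receptor of muscle (2.37 ± 0.518 and 7.45 ± 4.80 CPM), and Itgam, a leukocyte subunit (2.11 ± 1.37 and 9.64 ± 9.31 CPM, control first, SD, n = 3), and both passed in DESeq2 alone of the 3 tests, with the highest value of each in replicate 1 of the cKO group.

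Of the collagen ligands, Col13a1 was at 3.16 ± 0.590 and 25.4 ± 21.6 CPM, and the beaded filament chains Col6a1 and Col6a2 were at 110 ± 57.8 and 413 ± 199 CPM and at 126 ± 59.2 and 419 ± 198 CPM (control first, SD, n = 3 per group). All 3 passed with the block and in DESeq2. The chains of collagen I, the main ligand of the Itga2 receptor, had negative log2 fold changes of -0.46 (SE 0.58) for Col1a1 and -0.53 (SE 0.63) for Col1a2. Among the RGD ligands, Ccn2 was at 74.6, 47.5 and 36.9 CPM in the control libraries and at 190, 138 and 157 CPM in the cKO libraries. Ccn2 is a matricellular protein, and its log2 fold change of 1.61 (SE 0.27) passed with the block and in DESeq2. Thbs1 (17.99 ± 6.18 and 142 ± 103 CPM) passed with both, and Spp1 (34.0 ± 11.6 and 499 ± 465 CPM), which binds the beta 3 receptor of osteoclasts, passed in DESeq2 alone of the 3 tests. Npnt, which encodes the ligand of the Itga8 receptor, was at 874, 723 and 829 CPM in the control libraries and at 495, 437 and 576 CPM in the cKO libraries, a log2 fold change of -0.69 (SE 0.15), opposite in sign to that of Itga8. It was named after its values were seen, for this role.

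In the latent TGF-beta list, Lrrc32, which anchors the latent complex on the cell surface, was at 5.72 ± 0.795 and 21.3 ± 16.5 CPM and passed with the block and in DESeq2. Nrros had a log2 fold change of 0.92 (SE 0.25) and Ltbp1 of 0.61 (SE 0.19), both under the fold criterion. In the adaptor list, Lims2 was at 0.808 ± 0.0630 and 2.98 ± 1.44 CPM and the kinase gene Ptk2b at 22.1 ± 6.98 and 9.08 ± 2.80 CPM, and both passed with the block and in DESeq2. Actn4, which links actin filaments at adhesions, was at 1031 ± 120 and 684 ± 48.3 CPM, and the difference on the log2 scale was -0.59 (SE 0.14). The talin and kindlin genes, whose products bind the beta tail, differed in sign. Their log2 fold changes were 0.01 (SE 0.27) for Tln1, 0.70 (SE 0.40) for Tln2, -0.48 (SE 0.15) for Fermt1, 0.62 (SE 0.22) for Fermt2 and 1.57 (SE 0.63) for Fermt3, and none passed the criterion in edgeR, with the block or in DESeq2.

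**Figure D5:**
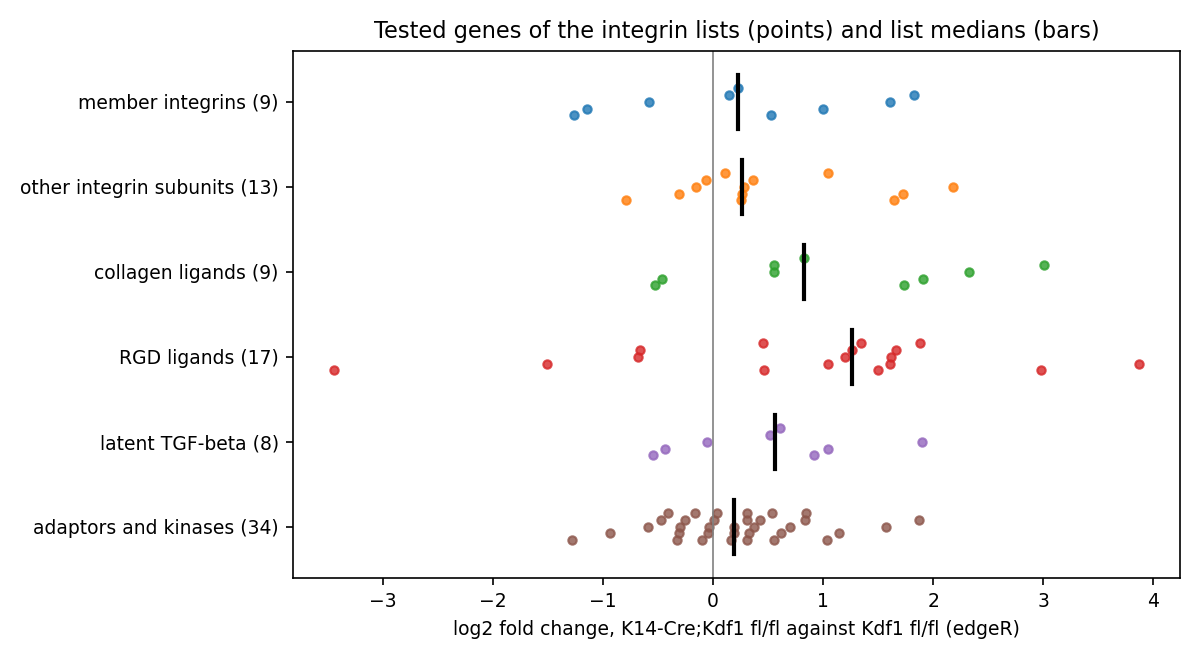
Log2 fold change (horizontal axis, cKO against control, edgeR) of every tested gene in the group of member integrins and in the 5 lists around them, with the number of genes tested in parentheses and black bars at the medians. The medians run from 0.19 for the adaptors and kinases to 1.26 for the RGD ligands.

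The genes most like Itgb3 and Itga2 in their pattern over the 6 libraries were found by the root mean square difference of log2 CPM after each gene was centred on its mean, among 14122 other genes tested. Nearest to Itgb3 were Socs3 (0.144), Rgs16 (0.148) and Slc37a2 (0.156), and nearest to Itga2 were Fut2 (0.132), Ovol1 (0.145) and Myo5c (0.167). Socs3 was at 138 CPM in replicate 1 of the cKO group and at 18.8 to 37.6 CPM in the other libraries, a shape like that of Itgb3. Ovol1, an epithelial transcription factor gene, was at 8.66 to 12.7 CPM in the control libraries and at 2.96 to 6.06 CPM in the cKO libraries.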

How the data were processed

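RNA-seq libraries of captured IEE were compared, 3 control (Kdf1 fl/fl) and 3 cKO (K14-Cre;Kdf1 fl/fl). The authors deposited 1 table that gives each gene 3 kinds of value. Estimated counts were deposited without normalisation, and between 10.9% and 11.5% of them were fractional. TPM and FPKM were computed by the authors as values scaled for transcript length and sequencing depth. The submitters' processing notes name BWA 0.7.12, Picard 2.6.0 and StringTie. The build and the annotation are not given in the sources used here, so no coordinates of that build are printed. Promoter sequences and their positions are from RefSeq (GRCm38.p6), and gene order is from GENCODE M21.

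Estimated counts were rounded. The filterByExpr function of edgeR 4.0.16 (R 4.3.3) kept 14131 of 18152 genes. Counts were scaled by TMM (factors 0.950 to 1.03) and compared by robust quasi-likelihood F-tests, two-sided, with Benjamini-Hochberg adjustment over all genes tested. The criterion was that of the study, which names no test, namely a log2 fold change of 1 or more in either direction with an adjusted p up to 0.05. SE values were derived from the F statistic. The biological coefficient of variation was 25.4%. Alternatives were DESeq2 1.42.0 on the same genes, other scalings and filters, limma 3.58.1 on log2(TPM + 1) and log2(TPM + 0.1), the replicate block, other thresholds and the omission of each library. Fits that joined DESeq2 or the block with the omission of replicate 1, and DESeq2 with the block, were added after seeing the data. The fits were tested on counts simulated with the same biological coefficient of variation for every gene and no link between libraries. Such counts cannot judge the replicate block or the effect of a library that stands apart.

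Within each group, chi-square per gene between libraries was 35.4 to 77.3, so none was a duplicate. The titles call them biological replicates, and whether each came from a separate embryo is not given, so p values measure the spread between these libraries. Deviations from the group means correlated at 0.135, 0.324 and 0.499 across genes for libraries with the same number, and the numbers were read as pairs on this check. A pair with different numbers, control 2 and cKO 1, reached 0.144, above the lowest of these, so the pairing of number 1 is weak.

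The members and lists were chosen with earlier results of these data known. All members were named. From each list the 3 genes with the lowest p were named, with Kdf1, the marker genes and the 3 nearest genes in pattern to the members with the largest positive and negative change. Other genes named (Pelo, Npnt, Col1a1, Col1a2, Tln1, Tln2, Fermt1, Fermt2, Fermt3, Itga3, Itga6) were chosen after their values were seen.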

Additional observations from a re-analysis of the deposited data

How the results depend on the processing

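None of the 9 integrin genes passed the criterion in edgeR with TMM, with DESeq2's size factors, upper quartile scaling or library size alone, with a minimum of 10 counts in every library, with limma on TPM, or with no fold minimum. The count was 1 with no filter on low counts (Itga1), 3 with the replicate block, 4 in DESeq2 and 4 by unadjusted p with the fold minimum. Omitting 1 library gave 0 to 2, with Itga1 and Itga2 passing without replicate 3 of the cKO group. DESeq2 without replicate 1 of that group gave 2, the block without both libraries numbered 1 gave 2 (Itga1 and Itga8), with 1 residual degree of freedom, and DESeq2 with the block gave 4.

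For all genes, the count of 61 (20 higher, 41 lower) became 980 in DESeq2, 860 with the replicate block, 7 (1 higher) when edgeR used the size factors of DESeq2, 9 (2 higher) with library size alone, 103 with no filter, 6 with the minimum of 10 counts, 16 with log2(TPM + 1) and 1372 by unadjusted p with the fold minimum. It ranged from 1 to 465 when 1 library was left out, with 465 without replicate 3 of the cKO group, 16 with control replicate 2 omitted and 1 without each of the others. The added fits gave 572 in DESeq2 without replicate 1 of the cKO group, 885 with the block without both libraries numbered 1, and 1118 in DESeq2 with the block. For the 81 genes of the integrin lists, the count of 0 became 18 in DESeq2, 15 with the replicate block, 1 with no filter, 24 by unadjusted p with the fold minimum, 0 to 6 when 1 library was left out, and 8, 15 and 19 in the added fits in the same order. The causes were not tested.

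The direction of 8 of the 9 genes held in every alternative run. That of Itga11 reversed without replicate 1 of the cKO group, with -0.027 in edgeR, -0.039 in DESeq2 and -0.27 in the block without both libraries numbered 1. Across the omissions of 1 library, the log2 fold change was -1.30 to -0.996 for Itga1, -0.027 to 1.40 for Itga11 and -1.56 to -1.03 for Itga2, 1.35 to 2.02 for Itga8, 0.62 to 2.23 for Itgb3, -0.85 to -0.36 for Itgb6, 0.16 to 0.76 for Itga5, 0.06 to 0.24 for Itgav and 0.18 to 0.29 for Itgb1. The block changed no call other than those of Itga1, Itga2 and Itga8 among the members. The share differences moved by less than the larger of the 2 group SDs in every alternative. Among the omissions of 1 library they ranged, in percentage points, from -2.07 to 1.53 for Itgb1, -1.14 to 1.92 for Itgb5, 0.155 to 1.01 for Itgb3, -24.1 to -16.3 for Itga2, 1.74 to 9.80 for Itga11 and 3.44 to 9.11 for Itgav, and that of Itgb8 changed sign as well. The filter on low counts left Itgb8 out of the edgeR fit.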
